A study of Mus musculus with 12 samples.

Results

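Cytochrome c oxidase, complex IV of the mitochondrial respiratory chain, is built in part from nuclear-encoded subunits of which some exist as a pair of isoforms. Of each pair, one gene is used in nearly all tissues and the other in few. The 10 genes described here form 5 such pairs, namely Cox6a2 with Cox6a1, Cox7a1 with Cox7a2, Cox8b with Cox8a, Cox4i2 with Cox4i1 and Cox6b2 with Cox6b1, and they are 10 of the 24189 genes listed in every RNA-seq library of the series. The first gene of each pair is named the tissue-specific isoform below. The genes were taken by name, and the set was built around Cox6a2, which was chosen by its large rise in expression from control to Xbp1-deficient plasmablasts (PBs). The values of Cox6a2 in the PB libraries therefore describe this choice and carry no p-value.

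The series holds 10 RNA-seq libraries of C57BL/6 mice, 2 for each of 5 groups, and 2 lists of Mist1 peaks. The PBs were sorted by surface markers that included CD138 on day 8 of the iGB culture, in which splenic B cells grow on 40LB feeder cells that supply CD40 ligand and BAFF, with IL-4 in the first 4 days and IL-21 in the last 4. They came from control Xbp1 fl/fl mice, from Cd23-Cre Xbp1 fl/fl mice, in which Cre deletes the floxed gene in the B cell lineage from immature B cells onward, and from Bhlha15 CreER/CreER mice, with CreER placed into both copies of the gene that encodes the transcription factor Mist1. The Cd23-Cre mutants are named Xbp1-deficient PBs and Mist1-deficient PCs below. The plasma cells (PCs) were sorted as TACI+CD138+ cells of the spleen on day 7 after immunization with NP-KLH, from Cd23-Cre Bhlha15 fl/fl mice and from controls that are labelled wildtype and described as Bhlha15 fl/fl in the study. The number of mice behind a library is not given in the sources used here. Mist1 peaks were obtained from CD138+ PBs after 4 days of culture with LPS, from mice whose Bhlha15 fl/fl alleles carry a biotin acceptor tag and which are R26 BirA/BirA, so that tagged Mist1 is biotinylated.

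Complex IV passes electrons from cytochrome c to oxygen. Its catalytic core is encoded by mitochondrial DNA, while the nuclear subunits surround this core and affect its assembly, stability and activity. Cox6a2, Cox7a1 and Cox8b are the heart and skeletal muscle forms of their subunits, Cox4i2 is known from the lung and as an oxygen-responsive form, and Cox6b2 is known from the testis. Xbp1 is the transcription factor of the unfolded protein response that expands the secretory machinery of PCs.

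The promoter tables used here, from RefSeq on GRCm38.p6, matched 7 of the 10 genes, and the promoters of a pair of ubiquitous isoforms are printed because Mist1 peaks covered the start of one, Cox8a, and lay nowhere within 10 kb of the other, Cox7a2. Each window holds the 250 bases before the start of the gene, 5′ to 3′ on the strand of the gene, and capitals mark the E-box, the motif CANNTG that basic helix-loop-helix factors such as Mist1 bind. The Cox8a window is chr19:7217617-7217866 and the Cox7a2 window is chr9:79759854-79760103, both on the minus strand.
Cox8a: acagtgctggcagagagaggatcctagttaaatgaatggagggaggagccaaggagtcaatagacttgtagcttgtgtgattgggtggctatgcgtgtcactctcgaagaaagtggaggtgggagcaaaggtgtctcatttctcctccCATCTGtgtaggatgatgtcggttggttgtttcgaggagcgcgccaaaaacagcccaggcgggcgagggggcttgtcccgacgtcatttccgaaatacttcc
Cox7a2: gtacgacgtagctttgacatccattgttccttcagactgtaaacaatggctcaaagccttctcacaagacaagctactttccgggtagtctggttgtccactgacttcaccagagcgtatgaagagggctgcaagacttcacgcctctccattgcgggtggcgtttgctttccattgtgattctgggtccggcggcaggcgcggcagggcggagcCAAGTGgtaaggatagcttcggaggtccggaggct
Each window held 1 E-box, which began 102 bases before the start in Cox8a and 35 bases before it in Cox7a2. An E-box is common, as 66.2% of 32851 promoters of the same table and length held CANNTG on either strand. The form CAGCTG was in 13.0% of them and, of the 7 genes, in that of Cox8b.

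The levels are the deposited TPM, transcript abundances that are corrected for gene length and scaled to the same total in every library, so that genes can be compared. The deletions were first checked in each library. Bhlha15 was at 176 and 159 TPM in control PBs, 3.57 and 2.60 TPM in Xbp1-deficient PBs, and 0.210 and 0.551 TPM in Bhlha15 CreER/CreER PBs. It was at 258 and 242 TPM in control PCs and 14.4 and 16.6 TPM in Mist1-deficient PCs. Bhlha15 was thus low in both mutant PB genotypes. Xbp1 was at 3168 and 3043 TPM in control PBs and 1981 and 2024 TPM in Xbp1-deficient PBs, which counts all exons of the gene and does not measure the deletion alone.

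Cox6a2, the muscle form of subunit VIa, was at 4.09 and 4.19 TPM in control PBs, at 190 and 246 TPM in Xbp1-deficient PBs and at 5.20 and 4.20 TPM in Bhlha15 CreER/CreER PBs. In the PCs it was at 5.54 and 4.44 TPM in controls and 2.37 and 3.42 TPM in Mist1-deficient mice. Only the 2 Xbp1-deficient libraries were high, and each of the other 8 libraries was below 6 TPM. On the log2 scale of scaled TPM plus 0.1, Xbp1-deficient PBs exceeded control PBs by 5.47 ± 0.13 (SE, n = 2 and 2) for Cox6a2, a 44.3-fold difference. The same difference was 0.21 ± 0.13 between Bhlha15 CreER/CreER and control PBs, and 5.26 ± 0.13 between Xbp1-deficient and Bhlha15 CreER/CreER PBs. The 3 comparisons share libraries. By its mean, Cox6a2 ranked 9817 of 24189 genes in control PBs and 794 in Xbp1-deficient PBs.

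**Figure D1:**
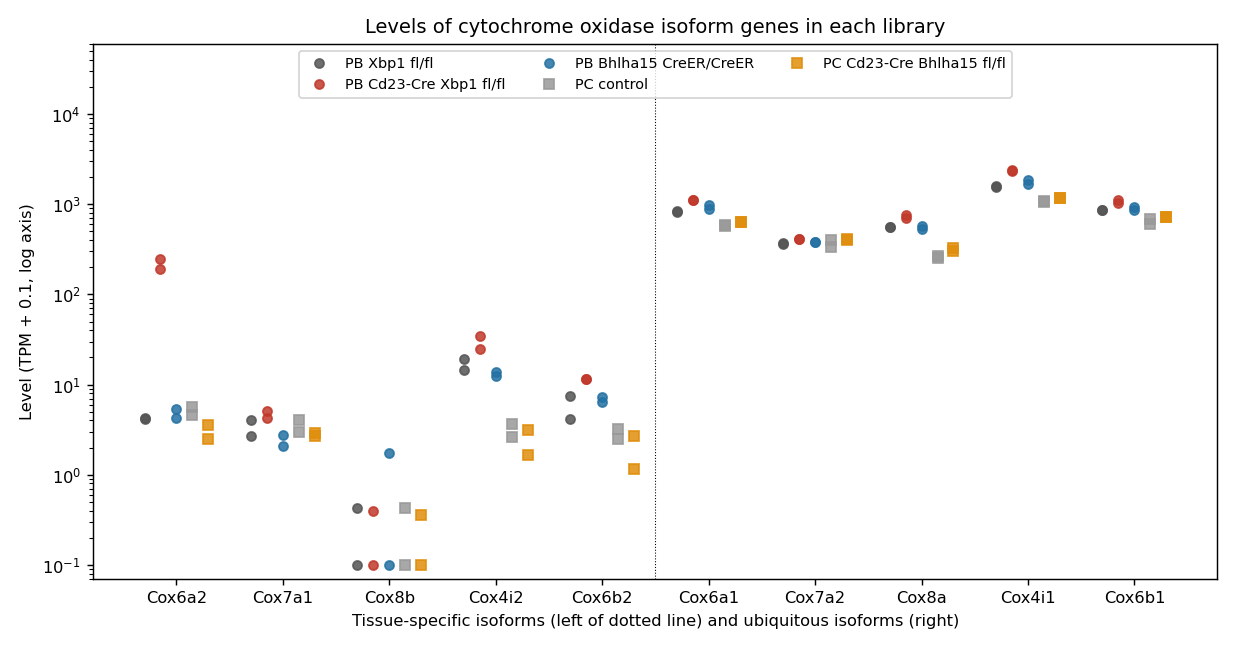
Level of each isoform gene in the 10 libraries, as TPM + 0.1 on a log axis, with circles for PB and squares for PC libraries and 1 point per library; a gene listed at 0 TPM sits at 0.1. The ubiquitous isoforms on the right lie between 255 and 2387 TPM in every library, the tissue-specific isoforms on the left lie below 35 TPM, except Cox6a2 in the 2 Xbp1-deficient PB libraries at 190 and 246 TPM.

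Among the other tissue-specific isoforms, Cox4i2 was highest, at 14.3 and 19.1 TPM in control PBs, 34.3 and 24.7 TPM in Xbp1-deficient PBs and 13.6 and 12.4 TPM in Bhlha15 CreER/CreER PBs. It was at 3.56 and 2.51 TPM in control PCs and 3.04 and 1.55 TPM in Mist1-deficient PCs. The PB libraries were thus higher than all PC libraries, and both Xbp1-deficient libraries were above the other PB libraries. Cox6b2 was at 4.01 and 7.35 TPM in control PBs, 11.3 and 11.4 TPM in Xbp1-deficient PBs, 7.09 and 6.37 TPM in Bhlha15 CreER/CreER PBs, 3.12 and 2.42 TPM in control PCs and 1.07 and 2.58 TPM in Mist1-deficient PCs. Its 2 Xbp1-deficient libraries were again the highest, while those of the control PBs lay far apart. Cox7a1, the muscle form of subunit VIIa, ranged from 1.97 to 5.04 TPM over the 10 libraries. Cox8b was listed at 0 in 5 of the 10 libraries and reached at most 1.66 TPM, and it was left out of the tests.

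The ubiquitous isoforms were among the most abundant transcripts of the cells. Cox4i1, the common form of subunit IV, was at 1576 and 1539 TPM in control PBs, 2347 and 2387 TPM in Xbp1-deficient PBs, 1676 and 1871 TPM in Bhlha15 CreER/CreER PBs, 1067 and 1093 TPM in control PCs and 1188 and 1179 TPM in Mist1-deficient PCs. It was the highest of the 10 genes in every group and ranked 40 of 24189 genes in Xbp1-deficient PBs. Cox4i1 overlaps the annotated gene Gm20388 on the same strand, so that its level is uncertain to the extent that reads were divided between them. Cox6a1, the partner of Cox6a2, was at 847 and 827 TPM in control PBs and 1103 and 1123 TPM in Xbp1-deficient PBs. Cox6a1 was at 883 and 970 TPM in Bhlha15 CreER/CreER PBs, 581 and 574 TPM in control PCs and 643 and 642 TPM in Mist1-deficient PCs. Cox8a was at 555 and 559 TPM in control PBs, 751 and 712 TPM in Xbp1-deficient PBs and 533 and 571 TPM in Bhlha15 CreER/CreER PBs. Over the 10 libraries, Cox6b1 ranged from 606 to 1120 TPM and Cox7a2 from 339 to 416 TPM, so that Cox7a2 varied least of the 5. In control PBs the order of the ubiquitous isoforms was Cox4i1, Cox6b1, Cox6a1, Cox8a and Cox7a2, with no overlap of neighbours, and in Xbp1-deficient and Bhlha15 CreER/CreER PBs the libraries of Cox6a1 and Cox6b1 overlapped. In both PC groups Cox7a2 lay above Cox8a, whereas in all 3 PB groups it lay below it.

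A share of an isoform within a library does not depend on how libraries are scaled to each other. Cox6a2 made up 14.7% and 18.0% of the summed TPM of Cox6a2 and Cox6a1 in the Xbp1-deficient PBs, a mean of 16.3% ± 2.3 (SD, n = 2). It made up 0.480% and 0.504% in control PBs and 0.585% and 0.431% in Bhlha15 CreER/CreER PBs. In the PCs, its share was 0.943% and 0.767% in controls and 0.368% and 0.530% in Mist1-deficient mice. Despite its rise, Cox6a2 thus stayed below Cox6a1 in every library. No other tissue-specific isoform exceeded 1.44% of its pair in any library, and this highest value was that of Cox4i2 in 1 Xbp1-deficient library. The share of Cox4i2 was 1.44% and 1.02% in Xbp1-deficient PBs and 0.897% and 1.23% in control PBs, so that these groups overlapped. Cox7a1 also overlapped, with 0.987% and 1.204% against 0.683% and 1.07%. Cox6b2 did not, with 1.001% and 1.101% against 0.458% and 0.845%. The 5 tissue-specific isoforms together took 4.02% and 4.83% of the summed TPM of the 10 genes in Xbp1-deficient PBs and between 0.292% and 0.835% in the other 8 libraries. Cox6a2 alone was 79.2% and 85.7% of that part in the Xbp1-deficient libraries and 16.4% and 11.98% in the control PB libraries.

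**Figure D2:**
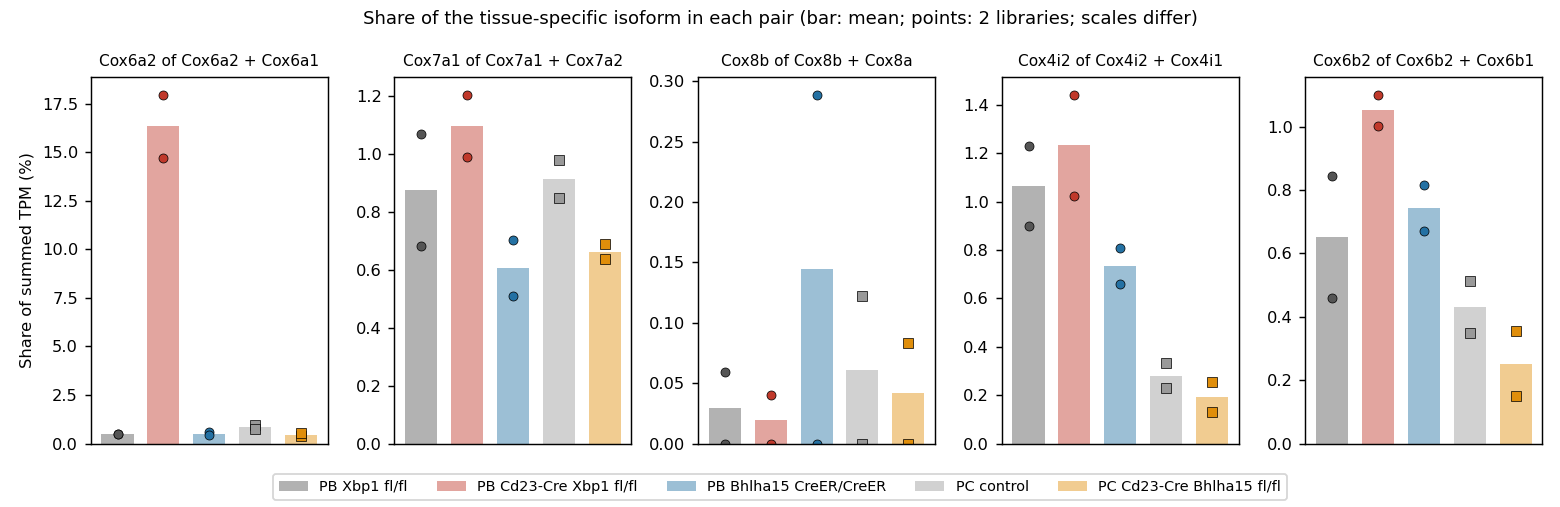
Share of the tissue-specific isoform in the summed TPM of its pair, in percent, with a bar for the mean of a group and a point for each of its 2 libraries; each panel has its own axis starting at 0. Cox6a2 reaches 14.7% and 18.0% in Xbp1-deficient PBs, while no other isoform passes 1.44% in any library.

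The first comparison asks which other isoforms differed between Xbp1-deficient and control PBs. Both Cox4i2 and Cox6b2 rose, and none of the 5 ubiquitous isoforms passed the test. Of 8 isoforms tested, 2 rose and 0 fell, at a background of 10.3% of 12125 genes called higher and 18% called lower (limma, Benjamini-Hochberg adjusted p under 0.05 over all genes). Cox4i2 was higher by 0.61 ± 0.17 on the log2 scale (SE, n = 2 and 2, limma adjusted p = 0.0287). Cox6b2 was higher by 0.84 ± 0.23 (limma adjusted p = 0.0246). Both calls rest on single libraries. Without the first control library, Cox4i2 had an adjusted p of 0.186 and Cox6b2 of 0.103, and without the first Xbp1-deficient library they had 0.171 and 0.0787 (limma). Without the second Xbp1-deficient library, Cox6b2 had a limma adjusted p of 0.0773, and the call of Cox4i2 stood at 0.00582. Neither gene was called when all genes above 0 in a library were kept (limma adjusted p = 0.0685 for Cox4i2 and 0.0631 for Cox6b2) or without the variance trend (0.0919 and 0.0757).

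For the ubiquitous isoforms, the difference between Xbp1-deficient and control PBs was 0.40 for Cox4i1, with a 95% interval of 0.09 to 0.70 and a limma adjusted p of 0.0559. It was 0.20 for Cox6a1 (interval -0.06 to 0.47), 0.18 for Cox8a (-0.05 to 0.42), 0.10 for Cox6b1 (-0.17 to 0.37) and -0.04 for Cox7a2 (-0.25 to 0.16). The median over the 5 was 0.184 on the log2 scale, and that over all 12125 genes 0.0041. These values depend on the scaling. In deposited TPM all 5 ubiquitous isoforms were higher in both Xbp1-deficient libraries than in both controls, but so was the typical gene, whose median difference was 0.21 without scaling. With TPM as deposited, 7 of the 8 isoforms were called higher, all but Cox7a1, and the calls over all genes changed from 1250 higher and 2186 lower to 3423 higher and 1357 lower. With that scaling the difference of Cox7a2 also turned positive, to 0.17 (limma adjusted p = 0.0181). Quantile normalization also gave 7 of 8 called higher, where 2513 of all 12125 genes were called higher and 1965 lower. The difference of Cox6a2 was 5.20 to 5.67 over all alternatives tried.

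**Figure D3:**
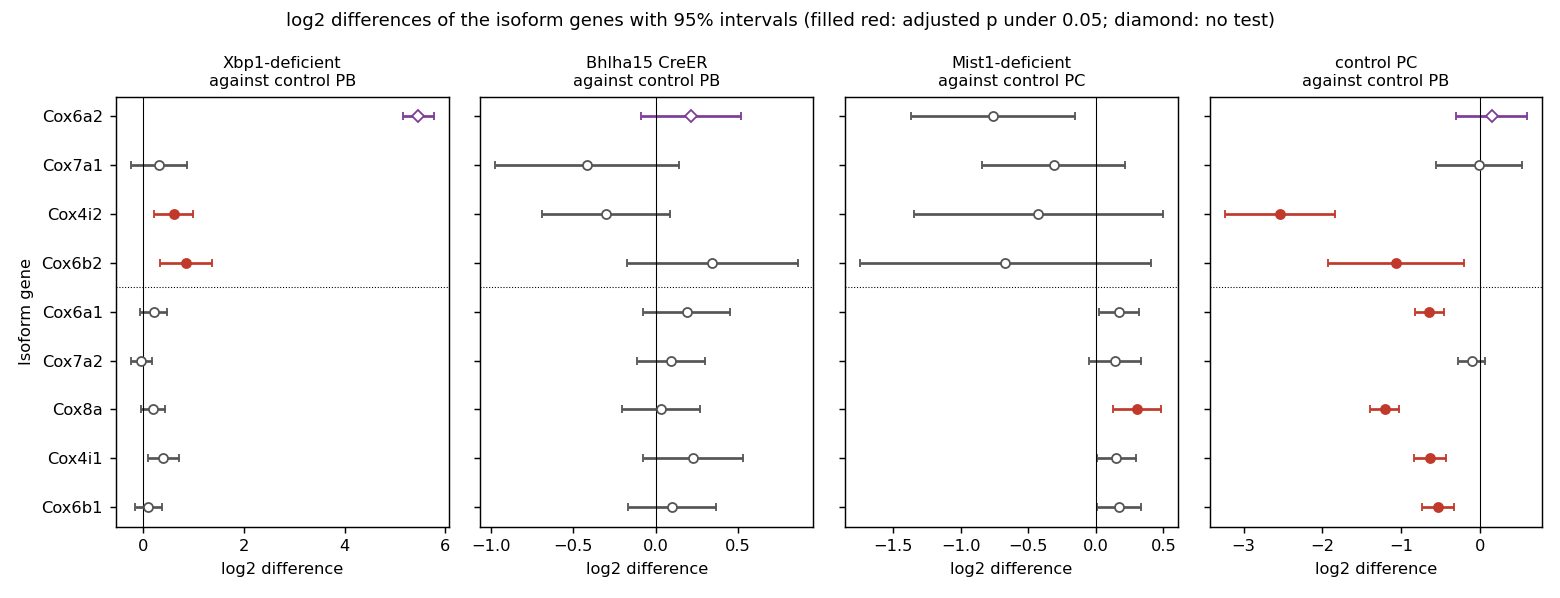
log2 differences in scaled TPM + 0.1 with 95% intervals from limma for 9 isoform genes in 4 comparisons, with tissue-specific isoforms above the dotted line; filled red circles passed an adjusted p of 0.05, open circles did not and diamonds mark Cox6a2 where it was not tested. Axes differ between panels. In the first panel Cox6a2 lies at 5.47 and all others lie between -0.04 and 0.84.

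The PBs of Bhlha15 CreER/CreER mice show the isoforms in the near absence of Bhlha15 mRNA. No isoform was called: 0 of 8 rose and 0 fell, at a background of 0.0495% called higher and 0.272% called lower (limma). An unadjusted p under 0.05 was reached by 0 of 8 isoforms and by 1267 of all 12125 genes (limma). Differences from control PBs ran from -0.42 for Cox7a1, with an interval of -0.97 to 0.14, to 0.34 for Cox6b2, with an interval of -0.18 to 0.86. Intervals of this width leave room for changes of moderate size in the lowly expressed isoforms. When Xbp1-deficient PBs were compared directly with Bhlha15 CreER/CreER PBs, 1 of 8 isoforms rose and 0 fell. The background was 9.34% higher and 17.8% lower, so that the share called higher was near that of all genes. The isoform called was Cox4i2, higher by 0.91 ± 0.17 on the log2 scale (n = 2 and 2, limma adjusted p = 0.00498). Cox7a1 was at 4.15 and 5.04 TPM against 2.67 and 1.97 TPM, a difference of 0.72 ± 0.24 (limma adjusted p = 0.0591). Without scaling, 6 of the 8 were called higher here, where 3977 of all 12125 genes were called higher and 1266 lower.

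Splenic PCs without Mist1 were compared with control PCs, and these libraries had no part in the choice of Cox6a2. Here the ubiquitous Cox8a rose, and Cox6a2 did not pass the test. Of 9 isoforms tested, 1 rose and 0 fell, at a background of 13.3% of 12028 genes called higher and 16.2% called lower (limma). The share called higher was thus near that of all genes. Cox8a, the common form of subunit VIII, was at 265 and 255 TPM in control PCs and 303 and 331 TPM in Mist1-deficient PCs, with a difference of 0.30 ± 0.07 on the log2 scale (SE, n = 2 and 2, limma adjusted p = 0.0286). The limma adjusted p of Cox8a became 0.0785 without the first and 0.214 without the second Mist1-deficient library, and 0.0922 without the variance trend. Cox6a2 was lower in both Mist1-deficient libraries than in both controls, by 0.76 ± 0.25 and with an interval of -1.37 to -0.15 (limma adjusted p = 0.0662). Without the second control PC library its adjusted p was 0.0489, and without each of the other libraries it was between 0.0840 and 0.266 (limma).

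The other ubiquitous isoforms had positive differences in Mist1-deficient PCs, which were 0.17 for Cox6a1 (limma adjusted p = 0.0759), 0.17 for Cox6b1 (0.102), 0.15 for Cox4i1 (0.106) and 0.14 for Cox7a2 (0.218). Cox7a1, Cox4i2 and Cox6b2 had negative differences of -0.31, -0.43 and -0.67, all with intervals that spanned 0. The median was 0.172 over the 5 ubiquitous isoforms and 0.0143 over all 12028 genes. The count changed with single libraries. It was 3 higher and 1 lower without the second control PC library, 2 higher and 0 lower without the first, and 0 without either Mist1-deficient library.

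Control PCs and control PBs differ in cell source, stage, genotype and experiment, which cannot be told apart. Most isoforms were lower in the PCs. Of 8 tested, 6 fell and 0 rose, at a background of 38.4% of 13230 genes called lower and 37.6% called higher. Cox4i2 fell by 2.54 on the log2 scale (SE 0.31, n = 2 and 2, limma adjusted p = 6.0e-05) and Cox8a fell by 1.21 (SE 0.08, limma adjusted p = 1.4e-06). The fall was 1.07 for Cox6b2, 0.65 for Cox6a1, 0.64 for Cox4i1 and 0.54 for Cox6b1. The call of Cox6b2 was lost without the second control PB library. Cox7a2 and Cox7a1 did not pass the test, with intervals of -0.28 to 0.06 and -0.56 to 0.53. Cox6a2 differed by 0.14, with an interval of -0.31 to 0.59. In bulk samples, fewer cells that express a gene and less RNA per cell cannot be told apart.

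The remaining genes of complex IV were taken from a list of names. In Xbp1-deficient PBs, 2 of 7 other subunit genes rose and 0 fell, where 10.3% of all genes were called higher and 18% lower. They were Cox7a2l, which helps to join complexes into supercomplexes, at 281 and 289 TPM against 189 and 190 TPM (difference 0.38 ± 0.09, limma adjusted p = 0.0132), and Cox6c, at 625 and 614 TPM against 401 and 456 TPM (0.33 ± 0.10, limma adjusted p = 0.0484). Of 24 assembly factor genes tested, 6 rose and 0 fell, and their median difference was 0.117 against 0.0041 over all genes. Cmc1, which acts in the maturation of the Cox1 subunit, rose by 0.75 ± 0.11 (limma adjusted p = 0.00108) and Cox20, a chaperone of the Cox2 subunit, by 0.64 ± 0.14 (0.0110). Surf1, Cox14, Coa4 and Taco1 were the others. Of 62 genes of the other respiratory chain complexes, 4 rose and 5 fell. Regulator genes gave 0 higher and 2 lower of 12, a share near that of all genes, namely Gabpa, a subunit of nuclear respiratory factor 2, at -0.33 and Mef2c, a factor of muscle and lymphoid genes, at -0.25. Leaving out 1 library at a time, 1 to 3 of the 31 subunit and assembly genes were called in place of 8, and 20 were called without scaling.

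In Mist1-deficient PCs, 10 of the 24 assembly factor genes rose and 1, the copper chaperone Cox17, fell, where 13.3% of all genes were called higher and 16.2% lower. Cmc1 rose by 0.82 ± 0.09 (limma adjusted p = 0.00348), Cep89 by 0.71 and Pet100 by 0.60. Of the 7 other subunit genes, Cox5a alone rose, which is a share near that of all genes, at 396 and 390 TPM against 341 and 363 TPM (difference 0.18 ± 0.05, limma adjusted p = 0.0486). Of 63 genes of the other complexes, 17 rose and 5 fell. Among 11 regulators tested, Esrra, a nuclear receptor of mitochondrial genes, and Chchd2 rose, by 0.46 and 0.33, again a share near that of all genes. Without single libraries, 2 to 14 of the 31 subunit and assembly genes were called in place of 12. In Bhlha15 CreER/CreER PBs, 0 of 7 subunit, 0 of 24 assembly and 0 of 62 other chain genes were called. Few genes of any kind were called there, 0.0495% higher and 0.272% lower. The median difference of the 24 assembly genes was 0.122, against 0.0044 over all genes. Cox7c was listed at 3.01 to 14.04 TPM, but 32.9% of its transcript matched other places of the genome at 95% identity or more, so that its level is uncertain. No stretch of 50 bases or more of the 10 isoform transcripts did so.

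Markers of other cell types were read beside Cox6a2. Of 15 striated muscle markers, 9 were below 1 TPM in both Xbp1-deficient libraries, namely Ckm, Ckmt2, Myh6, Myh7, Myl2, Actc1, Mb, Actn2 and Myog. In Xbp1-deficient against control PBs, 0 of 6 tested were called, where 10.3% of all genes were called higher and 18% lower. The sum of the 15 was 27.99 and 34.37 TPM in control PBs and 44.5 and 48.3 TPM in Xbp1-deficient PBs, less than Cox6a2 alone in the latter. The other 6 were Tnnt2, Tnni3, Tnnc1, Des, Pygm and Eno3. Of these, Des was at 15.6 and 16.02 TPM in Xbp1-deficient and 10.03 and 11.5 TPM in control PBs. Tnnc1 was at 7.41 and 7.52 against 3.83 and 5.12 TPM, and Tnnt2 at 5.72 and 4.22 against 3.66 and 2.88 TPM. Eno3 was at 15.8 and 13.95 against 7.39 and 10.92 TPM. Des, Tnnc1, Tnnt2 and Eno3 were thus higher in both Xbp1-deficient libraries without passing the test. Pygm was lower in both, at 1.34 and 1.08 against 1.75 and 1.56 TPM, and the libraries of Tnni3 overlapped. In control PCs, Des, Tnnc1 and Tnnt2 were below 1 TPM and were called lower than in control PBs. Tnni3, Pygm and Eno3 were called higher there, with means of 7.133, 9.158 and 21.1 against 1.655, 1.657 and 9.155 TPM. Of all genes, 38.4% were called lower and 37.6% higher. In Mist1-deficient PCs, 1 of 3 tested, Tnni3, fell and 0 rose. Its mean was 0.8805 against 7.133 TPM in control PCs (limma adjusted p = 0.00884), where 16.2% of all genes were called lower. In Xbp1-deficient against Bhlha15 CreER/CreER PBs, Tnnc1 alone of 6 passed the test (0.86 ± 0.18, limma adjusted p = 0.00963), where 9.34% of all genes were called higher. Brown adipocyte markers summed to 1.96 and 2.34 TPM and testis markers to 3.01 and 4.32 TPM in the Xbp1-deficient libraries. The 8 plasmacytoid dendritic cell markers summed to between 313 and 318 TPM in Xbp1-deficient and between 397 and 401 TPM in control PBs. Of the 4 that were tested, 0 rose and 1, Bst2, fell, where 10.3% of all genes were called higher and 18% lower. Bst2 was at 205 and 200 TPM in Xbp1-deficient and 309.8 and 297.3 TPM in control PBs. Pacsin1 (78.4 and 91.02 against 75.91 and 74.35 TPM) and Spib (28.1 and 24.3 against 13.54 and 22.74 TPM) were higher in TPM without passing the test. Bst2, Pacsin1 and Spib made up most of this sum. The libraries of Runx2 overlapped, and Ccr9 was below 1 TPM in both groups. In the Xbp1-deficient libraries Cd300c was at 0.157 and 0.178 TPM, and Siglech and Klk1 were listed at 0. The part of these cell types in the difference of Cox6a2 was not tested.

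Neutrophil markers did move with Cox6a2 among the PBs. All 6 of those tested rose in Xbp1-deficient PBs, and the sum of 9 was between 10.3 and 11.6 TPM in control, 133 and 135 TPM in Xbp1-deficient and between 3.895 and 9.356 TPM in Bhlha15 CreER/CreER PBs, with Elane listed at 0 in both Xbp1-deficient libraries. In the PCs, that sum was between 462 and 990 TPM and Cox6a2 was at most 5.54 TPM. Markers of fibroblasts and feeder cells summed to between 1062 and 1271 TPM in control, 1530 and 1665 TPM in Xbp1-deficient and between 833 and 1406 TPM in Bhlha15 CreER/CreER PBs, and to between 24.5 and 30.4 TPM in the PCs. Of 8 of them tested in Xbp1-deficient against control PBs, 1 rose and 1 fell, where 10.3% of all genes were called higher and 18% lower. Thy1 rose, at 109 and 102.8 against 33.85 and 40.18 TPM, and Lum fell, at 0.628 and 0.533 against 2.402 and 2.197 TPM. PB and PC markers summed to between 39400 and 39530 TPM in control and between 19590 and 20330 TPM in Xbp1-deficient PBs, with 0 of 8 at 0. Of the 8, 0 rose and 4 fell, namely Mzb1, Jchain, Tnfrsf17 and Cd79a, where 18% of all genes were called lower. The mean of Mzb1 was 15280 TPM in control and 3627 TPM in Xbp1-deficient PBs, and that of Jchain 22090 and 14080 TPM. Prdm1, Irf4 and Tnfrsf13b were higher in TPM in both Xbp1-deficient libraries without passing the test, and the libraries of Sdc1 overlapped. The part of neutrophil or feeder RNA in the differences of the isoforms was not tested.

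**Figure D4:**
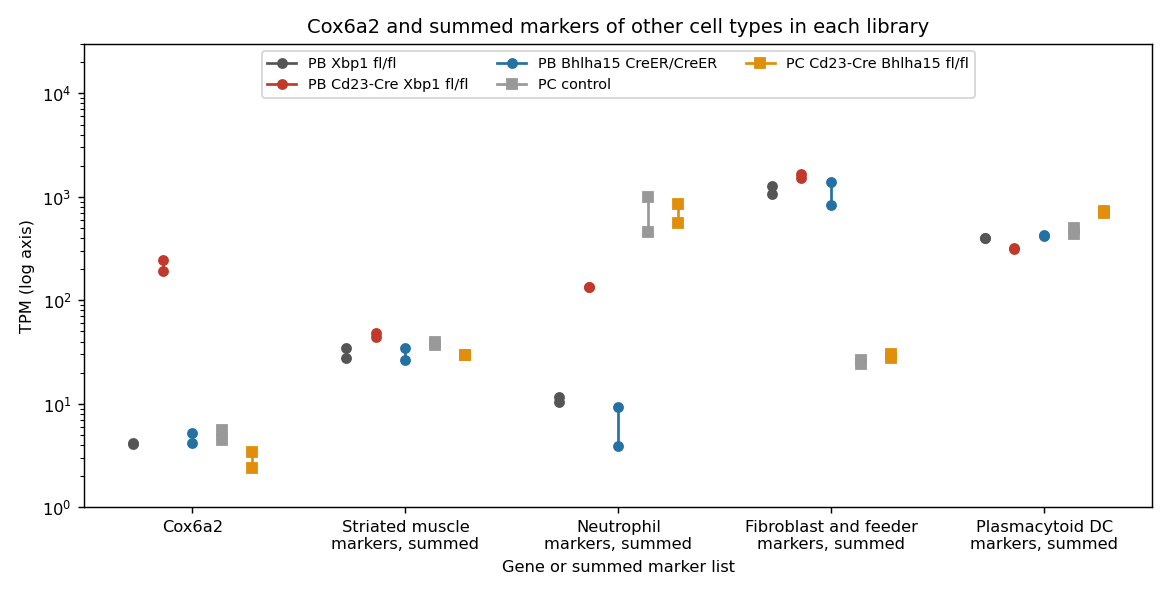
TPM of Cox6a2 and summed TPM of marker lists for 4 other cell types on a log axis, with 1 point per library and a line joining the 2 libraries of a group. Neutrophil markers are at 133 and 135 TPM in Xbp1-deficient PBs, where Cox6a2 is at 190 and 246 TPM, and at 462 to 990 TPM in the PCs, where Cox6a2 is at 2.37 to 5.54 TPM.

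Cox6a2 lies at chr7:135348950-135349880 of mm9 on the minus strand. Its last 66 bp, chr7:135348950-135349015, are annotated as exon of both Cox6a2 and Itgad, an integrin gene on the plus strand. Itgad was listed at 0 in both control PB libraries and at 0.0548 and 0.186 TPM in the Xbp1-deficient ones. In control PCs, it was at 2.67 and 2.03 TPM. Reads of a shared exon could not be divided between the genes here, and the strand setting of the counting is not given in the sources used here. The part of such reads in the level of Cox6a2 was not tested. Within 100 kb of the start of Cox6a2 lie 7 protein-coding genes. Of these, 4 were tested in Xbp1-deficient against control PBs and 0 were called, where 10.3% of all genes were called higher and 18% lower. The 4 were Armc5 (0.10 ± 0.13), 9130023H24Rik (-0.04 ± 0.18), Tgfb1i1 (0.21 ± 0.34) and BC017158 (-0.34 ± 0.15). Itgax, Itgad and Slc5a2 were below 1 TPM in every PB library and were not tested. The large difference of Cox6a2 was thus not shared by the neighbours that could be tested. In Mist1-deficient PCs, BC017158 rose by 0.60 (limma adjusted p = 0.0164). Of the 10 isoform genes, 5 are on chromosome 7, but they are megabases apart except Cox7a1 and Cox6b1.

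The genes with a pattern most like Cox6a2 were sought by Pearson correlation over the 10 libraries on the log2 scale, among 10792 genes. They were Mrpl21 (r = 0.99), a gene of the mitochondrial ribosome, Atf5 (0.99), a transcription factor of stress responses, Smarcd2 (0.98), Crkl (0.97) and Pdlim2 (0.97). Atf5 was at 99.6 to 100.1 TPM in control PBs, 537 to 546 TPM in Xbp1-deficient PBs, 101 to 115 TPM in Bhlha15 CreER/CreER PBs, 90.2 to 94.2 TPM in control PCs and 65.5 to 78.8 TPM in Mist1-deficient PCs. Mrpl21 moved far less, from between 38.6 and 39.1 TPM in control to between 55.1 and 57.4 TPM in Xbp1-deficient PBs. Since 2 libraries of a single genotype were high, such values mainly record a difference between these and the rest, and over the 6 PB libraries alone the first 5 genes were Hook2, Gpr174, Sfmbt2, Capn2 and Aldh2. Cox7a1 and Cox8b were too low to be compared. Of the 7 other isoforms, Cox4i1 (r = 0.68) and Cox6b2 (0.68) were the most like Cox6a2 over the 10 libraries and Cox7a2 (0.03) the least, while over the 6 PB libraries the most like was Cox4i2 (0.83).

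The Mist1 peak lists, which the authors called with MACS and which give positions alone, were searched around the isoform genes. No peak of either list lay within 10 kb of Cox6a2, Cox7a2, Cox8b or Cox6b2. The other 6 genes had a peak within 10 kb in both lists, where 57.9% of 19197 protein-coding genes and 92.4% of the 1754 genes with at least 100 TPM in control PBs did. Peaks covered the start of 2 genes, Cox8a and Cox4i1, as they did for 28.9% and 64.7% of these sets. At Cox8a, whose promoter is printed above, the peaks were at chr19:7291793-7292389 and chr19:7291572-7292425 of mm9, and at Cox4i1 they were at chr8:123191634-123192437 and chr8:123191426-123192572. Cox4i2 had a peak inside the gene in both lists, at chr2:152581620-152583347 and chr2:152581717-152583484. Those of Cox6a1 and Cox7a1 lay downstream and those of Cox6b1 upstream, all over 2 kb away.

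**Figure D5:**
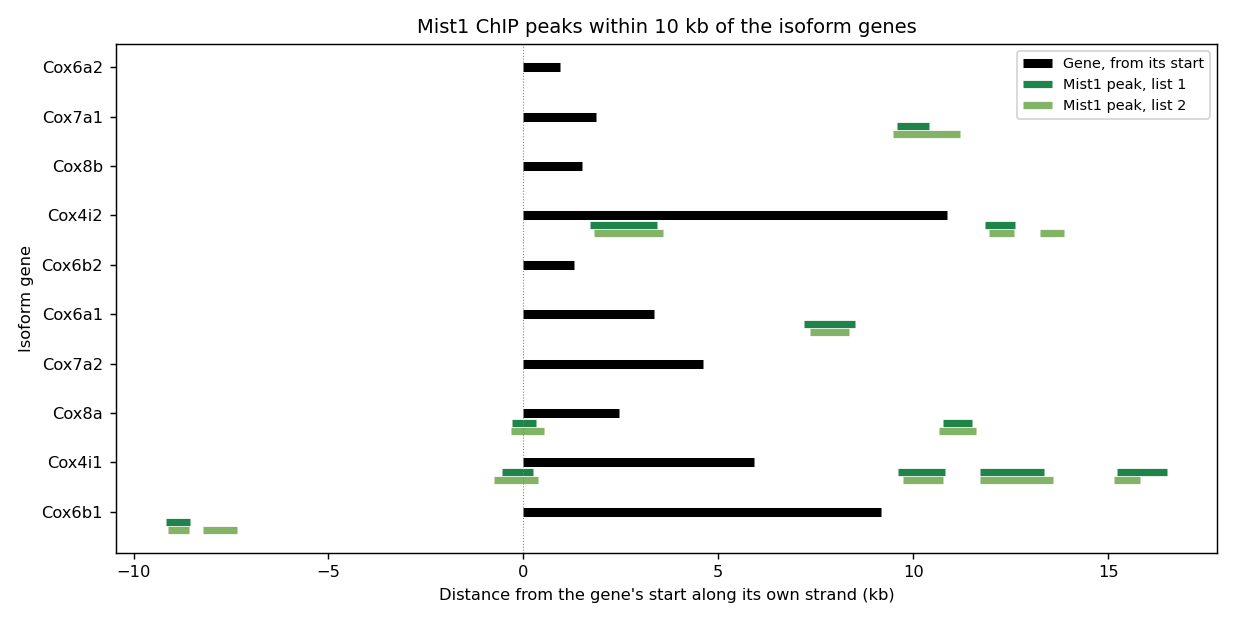
Mist1 peaks of the 2 lists within 10 kb of the 10 isoform genes, drawn to scale by distance in kb from the start of each gene along its own strand, with black bars for the genes and green bars for peaks. Peaks of both lists cover the starts of Cox8a and Cox4i1, and none is near Cox6a2, Cox7a2, Cox8b or Cox6b2.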

How the data were processed

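The authors trimmed the single-end reads with cutadapt, aligned them to mm9 with STAR 2.4.2, counted them per gene with featureCounts 1.5, converted the counts to TPM without immunoglobulin and T cell receptor genes, and deposited TPM, which keep no depth. Every library sums to 1000000 TPM and has 11514 to 12024 genes at 1 TPM or more. Peaks were called by the authors with MACS after alignment with Bowtie 1.0.0, and only positions were deposited. The p-values rest on the spread between the 2 libraries of each group, pooled over the groups of a fit and moderated over all genes by limma. No gene at 1 TPM or more in both libraries of a group had identical values in them.

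TPM were scaled by the median of ratios, genes reaching 1 TPM in 2 or more libraries of a fit were kept, and log2(scaled TPM + 0.1) was tested with limma 3.58.1 (R 4.3.3, eBayes with trend, two-sided, Benjamini-Hochberg over all genes) in fits of the 6 PB, the 4 PC or all 10 libraries. The study tested counts with DESeq2, which TPM do not allow. The fits were tested on simulated data. Gene symbols deposited with a trailing suffix, such as that of Cox6a2, were matched without it. The meaning of the suffix is not stated in the sources used here. Coordinates are from GENCODE M1 on mm9. Near-identical sequence was searched with blastn 2.17.0. mt-Co1, mt-Co2, mt-Co3, Coa1 and Ly6g were not matched. Coa7 and Jchain are listed under the older symbols Selrc1 and Igj.

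The members, lists and comparisons were chosen with earlier results of these data known. Genes named are the 10 isoforms, list genes, neighbours within 100 kb of the start of Cox6a2 and the 5 genes most like it. Alternatives were other scalings, pseudocounts, filters and variance models, fits of only the libraries compared, and each library left out.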

Additional observations from a re-analysis of the deposited data

Results flagged for a closer look

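Cox6a2 had opposite signs in the Bhlha15 mutants of PCs and PBs. It was lower in both Mist1-deficient PC libraries than in both PC controls, with a log2 difference of -0.76 (limma adjusted p = 0.0662), and higher in both Bhlha15 CreER/CreER PB libraries than in both PB controls, with a log2 difference of 0.21 and a 95% interval of -0.09 to 0.52. The lower of the Bhlha15 CreER/CreER libraries, at 4.20 TPM, was barely above the higher control at 4.19 TPM. Cox6b2 also had opposite signs, with -0.67 in the PCs and 0.34 in the PBs, but its libraries overlapped between mutants and controls in both. For neither gene was the difference between the effects tested, and allele, cell source and experiment cannot be told apart.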

How the results depend on the processing

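The limits are those of 2 libraries per group and of TPM, whose depth is unknown. For the isoforms other than Cox6a2 in Xbp1-deficient against control PBs, the 2 calls became 7 without scaling and with quantile normalization, 0 with all genes above 0 in a library and 0 with eBayes without trend, and 0 to 2 when a library was left out. For Xbp1-deficient against Bhlha15 CreER/CreER PBs, 1 call became 6 without scaling and with quantile normalization, 2 with robust eBayes and 2 with only the libraries compared, and 1 to 2 without a library. In Mist1-deficient PCs, 1 call became 0 with eBayes without trend and 0 to 4 without a library. The count of 0 in Bhlha15 CreER/CreER PBs held in all alternatives, and that of 6 in control PCs against control PBs was 5 or 6. Over all genes, 36.4% of calls were higher in Xbp1-deficient against control PBs, 71.6% without scaling and 56.1% with quantile normalization; against Bhlha15 CreER/CreER PBs these were 34.4%, 75.9% and 55.6%. The causes were not tested.

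Directions turned in differences that had passed no test. In Xbp1-deficient against control PBs, Cox7a2 became 0.17 without scaling and 0.18 with quantile normalization, and ran from -0.10 to 0.022 over the libraries left out, positive without the first control. In Bhlha15 CreER/CreER against control PBs, Cox8a became -0.013 without scaling and -0.054 with quantile normalization. Over the libraries left out, Cox8a ran from -0.094 to 0.16, Cox6b1 from -0.038 to 0.24 and Cox6b2 from -0.043 to 0.73. In Xbp1-deficient against Bhlha15 CreER/CreER PBs, Cox7a2 became 0.12 and 0.14 and Cox6b1 0.25 and 0.38 with these scalings, and over the libraries left out Cox6b1 ran from -0.14 to 0.14 and Cox6a1 from -0.13 to 0.16. In the PCs, Cox4i2 ran from -0.88 to 0.037. In control PCs against control PBs, Cox7a1 became 0.092 without scaling and ran from -0.30 to 0.25, Cox7a2 became 0.0035 without scaling and 0.16 with quantile normalization, and Cox6a2 ran from -0.035 to 0.33. With 2 kb in place of 10 kb, 3 in place of 6 isoforms had a Mist1 peak in both lists. No paired analysis was possible because the labels carry no replicate numbers, and first and second name the libraries of a group in accession order.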
